A study of Mus musculus with 6 samples.

Results

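The genes described here are 43 mouse genes of the interferon system, grouped by their known function and chosen with earlier results of these data known. They comprise 4 interferon receptor chains, 4 transcription factors, 5 nucleic acid sensors, 6 oligoadenylate synthetases, 3 genes of the ISG15 pathway, 8 antiviral effectors, 5 further induced genes, 3 genes of the PARP and DTX3L group and 5 interferon-inducible GTPases. Probes were matched to genes through RefSeq accessions, which gave 56 probes for 41 of the 43 genes. No probe was matched to Mx1 or Mx2, which were not analysed here, and the 2 probes of Oas1g stood well above background on at most 1 of 6 arrays. The remaining 40 genes were well above background on all 6 arrays, and they are 40 of the 25777 genes and transcripts tested.

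The 6 one-colour Agilent arrays measured total RNA of stromal vascular cells from mesenteric fat, that is, the cells left after collagenase digestion of the tissue and lysis of red cells. All mice were male ob/ob mice of the strain C57BL/6JHamSlc-ob/ob, which lack functional leptin and become obese. In the propolis group (3 arrays) they received Brazilian propolis, a resin collected by bees, at 100 mg/kg by intraperitoneal injection 2 times a week for 12 weeks, and in the vehicle group (3 arrays) a vehicle with a low concentration of DMSO and ethanol for 12 weeks. No age is given, and the labels call the samples biological replicates without saying how many mice each holds, so the p-values below measure the spread between these samples. The arrays lay on 2 slides, slide 1 with propolis 1, propolis 2, vehicle 1 and vehicle 2, and slide 2 with propolis 3 and vehicle 3.

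Levels are log2 fluorescence intensity minus the 75th percentile of the array, so 0 is the level of the 75th percentile and 1 unit is a doubling. Between 61.1% and 66.7% of the spots of an array stood well above background, no spot was saturated, and the number of arrays limits the precision. Adipose progenitor markers had a mean level between 6.06 and 6.32 on propolis arrays and between 5.99 and 6.08 on vehicle arrays, so cells of the labelled fraction were present. Vehicle 2 stood apart in genes of pancreatic acinar cells, with a mean of 4.78 against at most -2.56 on the other arrays, and vehicle 3 in genes of intestinal epithelium, with 5.13 against at most -0.15. The counts over the interferon genes and the differences of the 12 genes of lowest unadjusted p are also given without these 2 arrays.

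Interferons are secreted proteins, and cells release those of type I when they sense foreign or misplaced nucleic acids. Type I interferons bind the receptor formed by Ifnar1 and Ifnar2, and a complex that includes STAT2 and IRF9 then binds the interferon-stimulated response element (ISRE) in the promoters of antiviral genes. Interferon gamma binds Ifngr1 and Ifngr2 and acts through the gamma-activated sequence (GAS), with IRF1 and the large GTPases among the induced genes. In fat, macrophages, other leukocytes and stromal cells can all respond to interferons.

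No gene of the group passed the test. With limma and Benjamini-Hochberg adjustment over all genes, 0 of 40 had an adjusted p under 0.05, where 0.834% of all genes and transcripts did. At an unadjusted p under 0.05 there were 10 of 40 genes, or 25%, against 11.7% of all genes. Of these, 9 had higher means in propolis samples, against 7.24% of all genes, and 1 had a lower mean, against 4.48%. The 9 were Zbp1, Oasl2, Oas2, Isg20, Oas1a, Rtp4, Irgm1, Isg15 and Ifit3, and the 1 was Cmpk2.

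The means of 29 of the 40 genes were higher in propolis samples and those of 11 were lower, so 72.5% were higher, against 49.6% of all genes. Under quantile normalization 27 means were higher and 13 lower, and under scaling to the detected probes 25 were higher and 15 lower. The median log2 difference, propolis minus vehicle, was 0.24, against -0.0041 over all genes. The 3 propolis and the 3 vehicle values did not overlap for 15 of the 40 genes, or 37.5%, with 12 higher and 3 lower in propolis samples, against 17.4% of all genes. These counts describe the list, and a test of the list as a whole was not run.

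**Figure D1:**
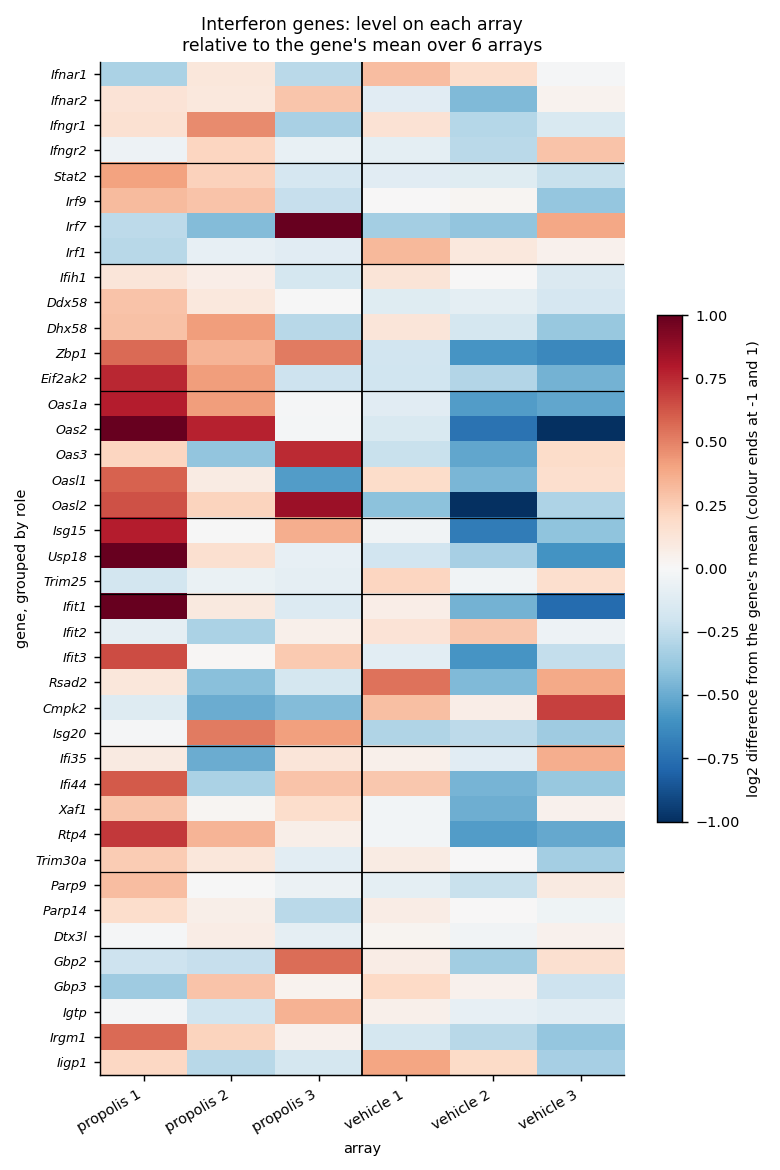
Each cell is the level of a gene (down the page, grouped by role between the horizontal lines) on an array (across), as the log2 difference from that gene's mean over the 6 arrays, with propolis arrays left of the vertical line. Red cells gather on propolis 1, the highest array for 19 of the 40 genes, and blue cells on vehicle 2 and vehicle 3, the lowest array for 13 genes each.

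The arrays of a group did not contribute evenly. The median level over the 40 genes was 2.20, 2.03 and 2.03 on propolis 1, 2 and 3, against 1.92, 1.72 and 1.87 on vehicle 1, 2 and 3. Propolis 1 was the highest array for 19 of the 40 genes, while vehicle 2 was the lowest for 13 and vehicle 3 for another 13. Without vehicle 2 and vehicle 3, which leaves 1 vehicle array whose spread is assumed to be that of the propolis arrays, 0 of 40 genes had an unadjusted p under 0.05. In that fit 23 genes had higher and 17 lower means, the median was 0.12, and 5.28% of all genes had an unadjusted p under 0.05. The differences in that fit were 0.98 for Oasl2, 0.80 for Oas2, 0.67 for Zbp1, 0.61 for Isg20 and -0.65 for Cmpk2. They were 0.57 for Usp18, 0.52 for Eif2ak2, 0.51 for Oas1a, 0.45 for Irgm1, 0.41 for Isg15 and for Ifit3 and 0.40 for Rtp4. All 12 kept their direction and had smaller sizes than with all arrays, given gene by gene below.

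Leaving out a single array also moved the count. Without propolis 1 alone it was 5 of 40 at an unadjusted p under 0.05, or 12.5%, where 9.46% of all genes had such a p. The count was again 5 without propolis 2, vehicle 2 or vehicle 3 alone, with shares over all genes of 9.62%, 8.09% and 13.6%. Thus without vehicle 3 the share among the interferon genes was below that of all genes. Without vehicle 1 the count was 8, or 20%, against 7.66% of all genes. Without propolis 3 it was 11, or 27.5%, against 18.8% of all genes.

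Within the slides, the median difference over the 40 genes was 0.30 on slide 1 and 0.20 on slide 2, against -0.015 and 0.070 over all genes. For 22 genes propolis was above vehicle on both slides, for 6 it was below on both, and for 12 the slides differed in sign. The same sign on both slides was thus seen for 70% of the genes, against 53.1% of all genes. In a fit of slide 1 alone, 8 of the 40 genes, or 20%, had an unadjusted p under 0.05. That share was below the 22.7% of all genes in the same fit.

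**Figure D2:**
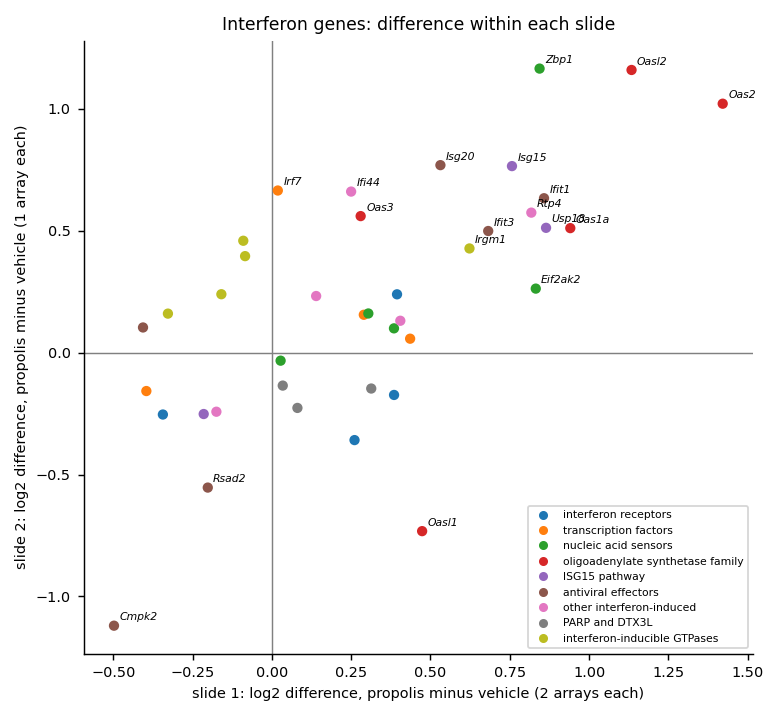
Each point is a gene, with its log2 difference, propolis minus vehicle, on slide 1 (2 arrays a group, horizontal) and on slide 2 (1 array a group, vertical), coloured by role. Oas2, Oasl2 and Zbp1 lie furthest to the upper right and Cmpk2 lowest at the left, while Oasl1 is at 0.47 on slide 1 and at -0.73 on slide 2.

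Matches to the elements bound by the interferon-activated factors were counted in the promoters of these genes and of all others. RefSeq promoter windows (build GRCm38.p6, 250 bases before to 50 after a gene's start) were available for 33 of the 43 genes, in 40 windows. The core searched was GAAANNGAAA on both strands, the common core of the ISRE, and TTCNNNGAA for the GAS, and no match of one overlapped a match of the other. The ISRE core was present for 16 of 33 genes, or 48.5%, against 3.99% of 27025 genes with a window. The GAS pattern was present for 9 of 33 genes, or 27.3%, against 9.55%. The genes were named by their function in the interferon system, so these shares describe the list and are not a result of the arrays. A match describes the letters and does not show that a factor binds there.

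The stretches below are shown because they cover genes with higher means in propolis samples (Isg15, Ifit1, Oas1a and Irgm1) and a neighbouring pair with lower means (Rsad2 and Cmpk2). Among genes not shown, Ifit3, Eif2ak2, Oas3, Stat2, Ddx58 and Trim30a had higher means and a match of the ISRE core. No match of either element was found for Zbp1, Oasl2, Oas2 or Rtp4, whose means were also higher. A gene without a promoter window could not show a match. Ifih1, Gbp2, Gbp3 and Igtp had a match of the ISRE core, with differences from -0.03 to 0.09. Isg20 had a higher mean and a GAS match only. A link between a match and the direction of a difference was not tested. Capitals mark matches of the ISRE core, and each stretch runs 5′ to 3′ on the gene's own strand, with positions counted from the start in the promoter table. For Oas1a, the last 19 bases of the stretch lie inside the gene's RefSeq span, which begins before that start. For Cmpk2, the RefSeq span begins 98 bases before that start, so its stretch is cut to 152 bases and ends at -99. The first is Isg15 (chr4:156200819-156200978, minus strand), the second Ifit1 (chr19:34640729-34640888, plus strand), the third Oas1a (chr5:120907526-120907685, minus strand), the fourth Irgm1 (chr11:48871421-48871580, minus strand), the fifth Rsad2 (chr12:26456453-26456612, minus strand) and the last Cmpk2 (chr12:26468965-26469116, plus strand).
Isg15: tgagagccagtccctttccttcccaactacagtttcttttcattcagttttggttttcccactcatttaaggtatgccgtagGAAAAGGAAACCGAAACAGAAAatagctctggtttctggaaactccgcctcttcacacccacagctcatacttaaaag
Ifit1: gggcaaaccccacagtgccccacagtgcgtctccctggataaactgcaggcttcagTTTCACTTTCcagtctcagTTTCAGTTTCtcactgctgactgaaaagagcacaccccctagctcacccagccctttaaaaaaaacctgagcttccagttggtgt
Oas1a: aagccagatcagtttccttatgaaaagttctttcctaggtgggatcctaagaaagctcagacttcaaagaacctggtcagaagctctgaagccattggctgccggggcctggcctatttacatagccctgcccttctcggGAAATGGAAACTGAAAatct
Irgm1: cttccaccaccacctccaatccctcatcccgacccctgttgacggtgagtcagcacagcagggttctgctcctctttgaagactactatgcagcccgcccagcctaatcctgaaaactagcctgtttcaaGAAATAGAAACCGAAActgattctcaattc
Rsad2: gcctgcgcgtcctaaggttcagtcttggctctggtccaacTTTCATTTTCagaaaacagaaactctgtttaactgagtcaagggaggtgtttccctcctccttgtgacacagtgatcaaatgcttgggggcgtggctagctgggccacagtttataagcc
Cmpk2: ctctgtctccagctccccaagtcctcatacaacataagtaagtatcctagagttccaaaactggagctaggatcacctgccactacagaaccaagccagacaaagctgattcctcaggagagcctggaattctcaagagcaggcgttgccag

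In the Isg15 promoter 3 overlapping matches lay between bases -78 and -57 before the start. Ifit1 had 2 separate matches, at -104 to -95 and at -85 to -76, both on the opposite strand. Oas1a and Irgm1 each had 2 overlapping matches, ending at -5 and -15 before the table's start. Those of Oas1a lay almost wholly within the 19 bases inside the gene's span. Rsad2 had 1 match, at -120 to -111. The window of Cmpk2 had none, but only 152 of its bases lie before the gene's RefSeq span. Rsad2 and Cmpk2 follow one another in the RefSeq gene order with 0 genes listed between them.

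Among the receptor chains, 0 of 4 had an unadjusted p under 0.05. Ifnar1, the first chain of the type I receptor, had levels of 2.18, 2.60 and 2.22 in propolis samples and 2.80, 2.67 and 2.47 in vehicle samples, a log2 difference of -0.31 (limma, adjusted p = 0.636). Its groups overlapped, and its 3 probes differed in sign, with -0.31 at the brightest and -0.07 and 0.14 at the others. Ifnar2, the second chain, had 3.60, 3.57 and 3.74 in propolis samples and 3.35, 3.03 and 3.50 in vehicle samples, a difference of 0.34 (adjusted p = 0.578). Every propolis value of Ifnar2 lay above every vehicle value.

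The chains of the interferon gamma receptor overlapped between groups. Ifngr1, the ligand-binding chain, had 5.04, 5.36 and 4.56 in propolis samples and 5.03, 4.60 and 4.73 in vehicle samples, a difference of 0.20 (adjusted p = 0.828). Ifngr2, the accessory chain, had 2.98, 3.24 and 2.95 in propolis samples and 2.93, 2.76 and 3.31 in vehicle samples, a difference of 0.05 (adjusted p = 0.949). For both, slide 2 gave the opposite sign, with -0.17 for Ifngr1 and -0.36 for Ifngr2, and the sign of Ifngr2 also turned under quantile normalization (-0.024).

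The 4 transcription factors did not pass either, and 0 of 4 had an unadjusted p under 0.05. Stat2, a part of the complex that carries the type I response to the nucleus, had 2.58, 2.41 and 2.01 in propolis samples and 2.07, 2.06 and 1.96 in vehicle samples, a difference of 0.31 (adjusted p = 0.649). Irf9, the DNA-binding part of the same complex, had 3.12, 3.09 and 2.57 in propolis samples and 2.81, 2.82 and 2.41 in vehicle samples, a difference of 0.25 (adjusted p = 0.759). For both genes propolis 3 lay within the vehicle values, so the groups overlapped.

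Irf7, which amplifies type I interferon production, had -1.10, -1.27 and 0.21 in propolis samples and -1.18, -1.23 and -0.46 in vehicle samples, a difference of 0.23 (adjusted p = 0.887). The arrays of slide 2 were the high ones in both groups, and without propolis 3 the difference was -0.23. Irf1, an early target of interferon gamma, ran the other way, with 3.94, 4.14 and 4.11 in propolis samples and 4.54, 4.33 and 4.26 in vehicle samples. Its difference was -0.32 (adjusted p = 0.560) and the groups did not overlap.

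The nucleic acid sensors had higher means in propolis samples for 5 of 5 genes, with a median difference of 0.29, although Ifih1 turned to the other sign under quantile normalization and under scaling to the detected probes. Zbp1 (probe A_55_P1994042), which binds Z-form nucleic acid and can start necroptosis, had the lowest adjusted p of the 40 genes. Its levels were 1.57, 1.35 and 1.53 in propolis samples and 0.82, 0.42 and 0.36 in vehicle samples, averaging 1.48 ± 0.12 in propolis and 0.53 ± 0.25 in vehicle samples (SD, n = 3 each). The 3 propolis values lay close together and above all vehicle values, a 1.93-fold higher mean (log2 difference 0.95, 95% interval 0.48 to 1.42, limma adjusted p = 0.105). A second, dimmer Zbp1 probe gave 0.96, and the slides gave 0.84 and 1.17.

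Eif2ak2, the kinase PKR that halts translation on double-stranded RNA, had 1.09, 0.76 and 0.13 in propolis samples and 0.14, 0.04 and -0.13 in vehicle samples. Propolis 3 lay within the vehicle range, and the difference of 0.64 had an adjusted p of 0.442. The RNA helicases Ddx58, Dhx58 and Ifih1, which encode RIG-I, LGP2 and MDA5, had differences of 0.26, 0.29 and 0.0074. Of these 3, the groups did not overlap for Ddx58 only.

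**Figure D3:**
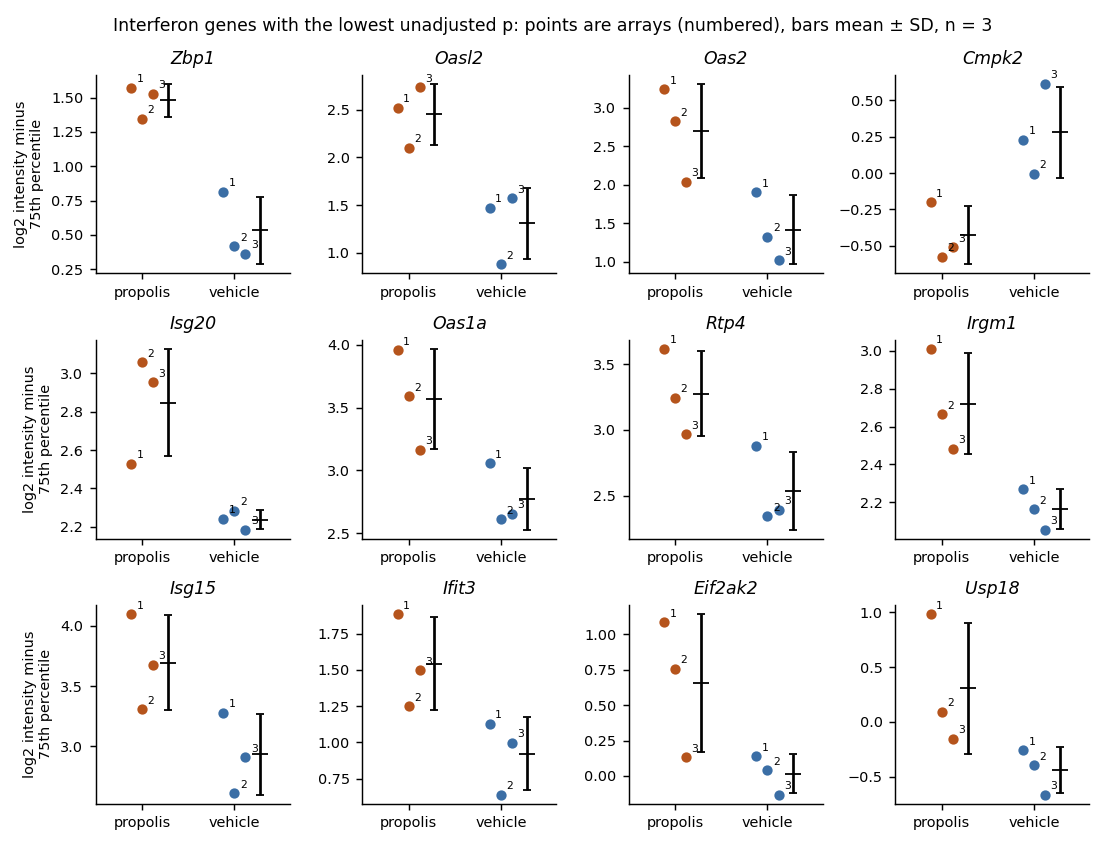
Points are the levels on single arrays (log2 intensity minus the 75th percentile of the array, numbered by replicate) for the 12 genes with the lowest unadjusted p, and bars give the mean ± SD of 3 arrays, with propolis left of vehicle. The groups overlap for Eif2ak2 only, Cmpk2 is the only one with lower values in propolis samples, and propolis 1 is the highest array for 9 of the 12.

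Active oligoadenylate synthetases make short oligoadenylates that activate the RNA-degrading enzyme RNase L. The 5 tested genes of the family, which include the synthetase-like Oasl1 and Oasl2, had the largest median difference of the roles, 0.80. Their mean level was 1.70, 1.24 and 1.22 in propolis samples and 0.87, 0.36 and 0.72 in vehicle samples, and 3 of the 5 had an unadjusted p under 0.05. All 5 means were higher in propolis samples, except that Oasl1 turned to the other sign under scaling to the detected probes.

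Oasl2 (probe A_51_P387123), a synthetase-like protein, had 2.52, 2.10 and 2.73 in propolis samples and 1.47, 0.88 and 1.57 in vehicle samples, averaging 2.45 ± 0.32 in propolis and 1.31 ± 0.37 in vehicle samples (SD, n = 3 each). The groups did not overlap, and the mean was 2.21-fold higher (log2 difference 1.14, 95% interval 0.49 to 1.79, limma adjusted p = 0.154). Oas2 (probe A_55_P2019719), which makes the longer oligoadenylates, had 3.24, 2.83 and 2.04 in propolis samples and 1.91, 1.32 and 1.02 in vehicle samples. Its lowest propolis array, propolis 3, was just above its highest vehicle array, and the mean was 2.44-fold higher (log2 difference 1.29, 95% interval 0.38 to 2.20, adjusted p = 0.246).

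Oas1a had 3.96, 3.59 and 3.16 in propolis samples and 3.06, 2.61 and 2.65 in vehicle samples, a 1.74-fold higher mean (log2 difference 0.80, adjusted p = 0.299). Again the groups did not overlap, with propolis 3 the lowest of its group and vehicle 1 the highest of its own. Oas1a has close paralogs, among them Oas1g, whose transcripts its probes may also bind, and its 2 probes gave 0.80 and 0.74. Oas3, with a difference of 0.37, and Oasl1, with 0.07, overlapped between groups. Of the Oas1g probes, 1 stood well above background, on propolis 1 alone.

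In the ISG15 pathway, 2 of 3 genes had higher means and 1 a lower mean in propolis samples. Isg15, a ubiquitin-like protein attached to other proteins after interferon exposure, had 4.10, 3.31 and 3.68 in propolis samples and 3.28, 2.61 and 2.91 in vehicle samples. The lowest propolis value, on propolis 2, was just above the highest vehicle value, on vehicle 1, and the mean was 1.69-fold higher (log2 difference 0.76, adjusted p = 0.365). Its second probe gave 0.95, but there the groups overlapped, with propolis 2 (-0.432) below vehicle 1 (-0.421). At the first probe the slides gave 0.76 and 0.77.

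Usp18, which removes ISG15 and dampens receptor signalling, had 0.98, 0.09 and -0.15 in propolis samples and -0.26, -0.40 and -0.66 in vehicle samples. Propolis 1 stood well above the other arrays, and the difference of 0.75 had an adjusted p of 0.450. Without propolis 1 it was 0.41. Trim25, a ubiquitin ligase that acts on RIG-I and can also attach ISG15, had lower values on every propolis array than on any vehicle array, with a difference of -0.23 (adjusted p = 0.682).

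The antiviral effectors were split, with 3 of 6 tested means higher and 3 lower in propolis samples. Isg20, an exonuclease that degrades RNA, had 2.53, 3.06 and 2.95 in propolis samples and 2.24, 2.28 and 2.19 in vehicle samples. The vehicle values lay close together below all propolis values, and the mean was 1.53-fold higher (log2 difference 0.61, adjusted p = 0.293). Its second probe gave 0.64.

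Ifit3 and Ifit1 belong to a family that binds foreign RNA ends. Ifit3 had 1.88, 1.25 and 1.50 in propolis samples and 1.13, 0.64 and 1.00 in vehicle samples, a 1.54-fold higher mean without overlap (log2 difference 0.62, adjusted p = 0.387). Ifit3 has a near-identical copy, Ifit3b, which its probe may also bind. Ifit1 had a difference of 0.78 with overlap between groups (adjusted p = 0.554), which was 0.37 without propolis 1, while Ifit2 of the same family had -0.24.

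Cmpk2 (probe A_52_P186937), a mitochondrial nucleotide kinase, was the only one of the 40 genes with an unadjusted p under 0.05 and a lower mean in propolis samples. It had -0.20, -0.57 and -0.51 in propolis samples and 0.23, -0.0043 and 0.61 in vehicle samples, averaging -0.43 ± 0.20 in propolis and 0.28 ± 0.31 in vehicle samples (SD, n = 3 each). All propolis values were below all vehicle values, and the mean was 1.63-fold lower (log2 difference -0.71, 95% interval -1.25 to -0.16, limma adjusted p = 0.287). Its second, dimmer probe gave -1.25, but there the groups overlapped, with propolis 3 (-1.72) above vehicle 1 (-2.14) and vehicle 2 (-2.21). Its genomic neighbour Rsad2, the antiviral enzyme viperin, overlapped between groups, with a difference of -0.32 (adjusted p = 0.764). The difference was negative on both slides for Cmpk2 (-0.50 and -1.12) and for Rsad2 (-0.20 and -0.55).

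**Figure D4:**
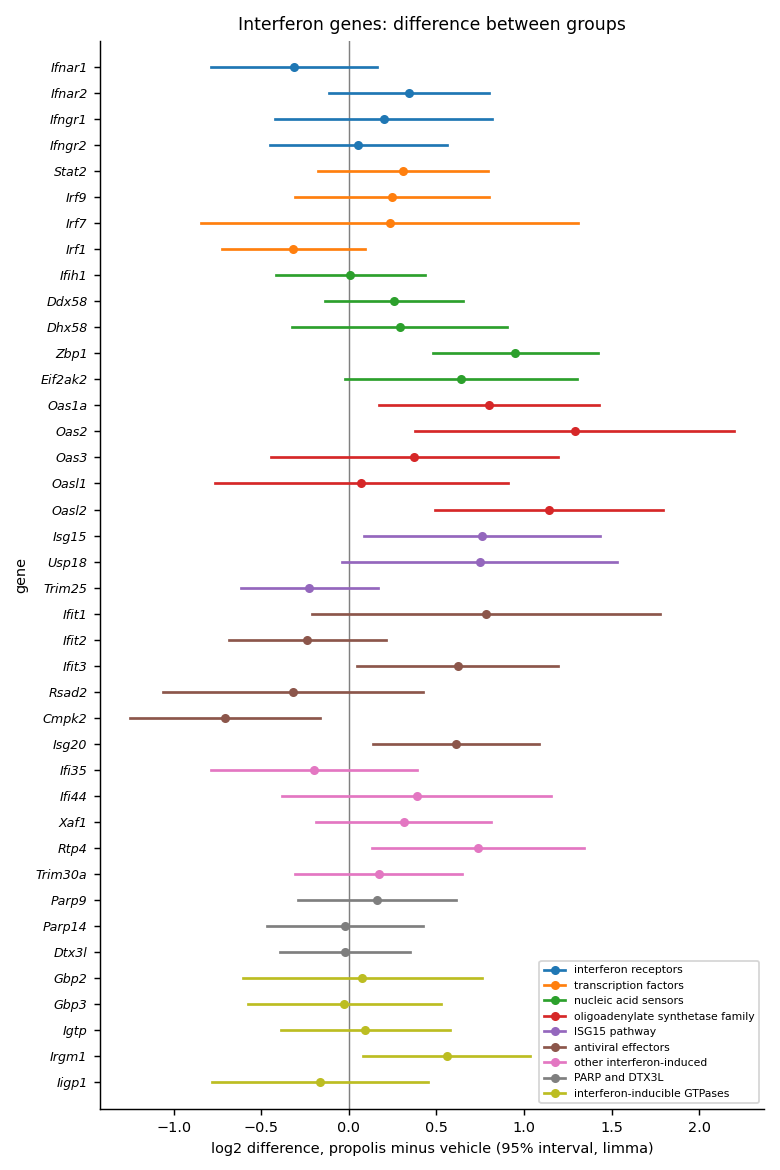
Points are log2 differences, propolis minus vehicle, of the 40 genes (down the page, coloured by role) and lines their 95% limma intervals, which are not adjusted for the number of genes. The intervals of 10 genes leave out 0, 9 of them above it and that of Cmpk2 below it.

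Of the other 5 induced genes, 4 had higher means and 1 a lower mean in propolis samples. Rtp4, a chaperone for membrane receptors, had 3.62, 3.24 and 2.97 in propolis samples and 2.88, 2.35 and 2.39 in vehicle samples, a 1.67-fold higher mean without overlap (log2 difference 0.74, adjusted p = 0.319). As for Oas2 and Oas1a, propolis 1 was the highest and propolis 3 the lowest of the propolis arrays. Ifi44 had a difference of 0.39, Xaf1 of 0.31, Trim30a of 0.17 and Ifi35 of -0.20, all with overlap. The 2 Xaf1 probes differed in sign, the dimmer one giving -0.76, and Trim30a has close paralogs whose transcripts its probe may also bind.

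Parp9, Parp14 and Dtx3l, whose proteins add ADP-ribose or ubiquitin, had differences of 0.16, -0.022 and -0.022 with overlap in each. Of the 5 GTPases, which attack vacuoles that hold pathogens, Irgm1 had an unadjusted p under 0.05. Irgm1, a regulator of the other immunity-related GTPases, had 3.01, 2.67 and 2.48 in propolis samples and 2.27, 2.16 and 2.06 in vehicle samples. The groups did not overlap and the mean was 1.47-fold higher (log2 difference 0.56, adjusted p = 0.346). Its second probe gave 0.48, but there the groups overlapped, with propolis 2 (-0.23) below vehicle 3 (-0.022). Gbp2, Gbp3, Igtp and Iigp1 had differences of 0.08, -0.03, 0.09 and -0.17, all with overlap, and the guanylate-binding proteins are a family of close paralogs.

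Further genes of the pathway were read from the same fit, and 0 of them had an adjusted p under 0.05. Of 21 listed interferons, 11 were tested, with a median difference of -0.06. Of these, 1 (9.09%, against 11.7% of all genes) had an unadjusted p under 0.05, in the lower direction. That was Ifnk, an interferon of epithelial cells, at -7.89, -7.44 and -5.34 in propolis samples and -4.82, -4.96 and -2.61 in vehicle samples. It was well above background on 1 of 3 propolis arrays and 3 of 3 vehicle arrays, so the size of its difference was not measured (adjusted p = 0.288). Ifnl3 and Ifna11, the next by unadjusted p, had differences of -0.59 and 1.42 with overlap.

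Of 16 signal transduction genes, 1 was higher and 2 were lower at an unadjusted p under 0.05, and the median was 0.05. That is a share of 18.75%, beside 11.7% of all genes, in a short list. Ifnlr1, the specific chain of the interferon lambda receptor, had -0.22, -0.60 and -0.73 in propolis samples and -3.02, -2.96 and -1.27 in vehicle samples. The groups did not overlap, and the mean was 3.73-fold higher (log2 difference 1.90, adjusted p = 0.187). Irf5, a transcription factor downstream of Toll-like receptors, and Ptpn6, a phosphatase of leukocyte signalling, had lower values on every propolis array, with differences of -0.56 and -0.49.

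Of the 15 sensing adaptors tested, 2 were higher and 1 lower at an unadjusted p under 0.05, with a median of 0.0086. The share was 20%, beside 11.7% of all genes, again in a short list. Sting1, the adaptor of cytosolic DNA sensing, had a difference of 0.50 and Myd88, the Toll-like receptor adaptor, of 0.65, both without overlap. Aim2, a DNA sensor of the inflammasome, had -0.79 with overlap.

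The medians of the other type I interferon-stimulated genes and of the other interferon gamma-induced genes differed in sign over all arrays. Of 43 type I genes tested, 5 were higher and 0 lower at an unadjusted p under 0.05, a share of 11.6% beside 11.7% of all genes. Of their means 27 were higher and 16 lower, and the median was 0.15. Examples were Ifi27l2a (log2 difference 0.68), Ube2l6, an enzyme that transfers ISG15 (0.57), and Ifitm1, which hinders virus entry (0.99). Of 27 interferon gamma-induced genes, 1 was higher and 3 were lower, a share of 14.8%, 8 means were higher and 19 lower, and the median was -0.19. Gbp4, a guanylate-binding protein, had -0.81, and the checkpoint ligand Cd274 had -0.67 and Gbp9 -0.47. A difference between the 2 lists was not tested, and on slide 2 both medians were above 0. The interferon gamma list had a median of -0.31 on slide 1 and 0.18 on slide 2, and the type I list of 0.10 and 0.21.

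**Figure D5:**
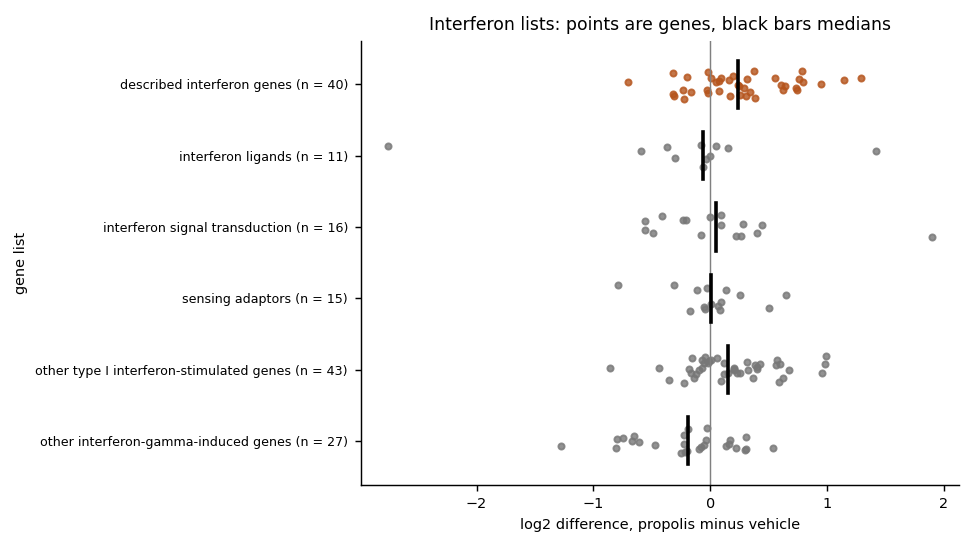
Points are genes and black bars medians of the log2 difference, propolis minus vehicle, for the 40 interferon genes described here (orange) and 5 other lists of the pathway (grey). The medians run from 0.24 in the top list to -0.19 in the list of other interferon gamma-induced genes.

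Levels of immune and stromal cell markers also differed between the groups, and in bulk samples fewer cells of a type and less RNA per cell cannot be told apart. Plasmacytoid dendritic cells are a main source of type I interferon, and their 8 of 8 markers tested had lower means in propolis samples, with a mean level of 0.54 to 1.01 in propolis samples and 1.47 to 2.67 in vehicle samples. Their median difference was -0.89 on slide 1 and -0.05 on slide 2. Spib and Ly6d, which B cells also express, were highest on vehicle 1 and vehicle 2. Klk1 was highest on vehicle 2 and vehicle 3, as was Clps of the pancreatic acinar cell markers. T cell markers had lower means in 9 of 9 (0.89 to 1.65 in propolis and 1.29 to 2.55 in vehicle samples) and B cell markers in 9 of 9 (-2.98 to -1.71 in propolis and -2.11 to 1.58 in vehicle samples). Both turned sign on slide 2, where the median difference was 0.50 for T cell and 0.26 for B cell markers, against -1.22 and -3.54 on slide 1. Macrophage markers had higher means in 6 of 9 (3.77 to 3.87 in propolis and 3.39 to 3.86 in vehicle samples) and natural killer cell markers in 6 of 9 (-0.98 to -0.49 in propolis and -1.10 to -0.69 in vehicle samples). Neutrophil markers had higher means in 4 of 7, with -0.31 to 0.67 in propolis and -0.84 to 1.09 in vehicle samples.

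Mesothelial markers had higher means in 8 of 9, with 1.69 to 2.62 in propolis and -0.31 to 1.75 in vehicle samples, and 2 of them, Bnc1 and Wt1, passed the test. Endothelial markers had lower means in 7 of 7 (1.61 to 2.65 in propolis and 2.50 to 3.05 in vehicle samples), and progenitor markers had higher means in 4 of 9. The part of these cell types in the interferon gene values was not tested.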

How the data were processed

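The arrays' deposited scanner output gives for each spot a fluorescence intensity on a linear scale, corrected for background and read with Agilent Feature Extraction 10.7.3.1 per the submitters' processing notes. The deposited series table holds log2 values that follow the log2 intensity of the same arrays up to a shift per array, with medians between -3.97 and -3.62. Its centring is not stated, and it served as an alternative only.

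Intensities were put on the log2 scale without non-uniform spots, replicate spots were averaged, and the 75th percentile of each array was subtracted. Probes well above background on at least 3 of 6 arrays entered (34786 of 55681, less 4 with a missing value). The brightest entering probe represented its gene, which left 25777 genes and transcripts, of which 15772 had symbols from RefSeq (GRCm38.p6). The array was designed on mm9, so array coordinates are not used. Of the 40 genes, 12 had more than 1 entering probe, and 3 of these had probes of opposite sign.

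Groups were compared with limma 3.58.1 (lmFit and eBayes, two-sided, no block) in R 4.3.3, with p-values adjusted by Benjamini-Hochberg over every gene tested and called under 0.05, and the procedure was tested on simulated data. The smallest p of an exact permutation test of 3 arrays against 3 is 0.1. The genes and lists were chosen with earlier results of these data known. Values on each array are given for the 12 genes of lowest unadjusted p, the receptors, Stat2, Irf9, Irf7 and Irf1, and the 3 genes of lowest unadjusted p in each other pathway list are named. Alternatives covered filters, scaling, background correction, the variance model, the probe rule, weights per array, the series table, slide and replicate blocks, and arrays left out. For normexp, median signals were used. Of the pathway genes, 1 is not reported here.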

Additional observations from a re-analysis of the deposited data

How the results depend on the processing

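Over 20 alternatives with a test, 390 of 400 values of the 20 genes followed kept their direction and side of the threshold, 6 turned sign and 4 passed the threshold. Of 20 untested differences on slide 2, 2 turned sign. Ifngr2 turned to -0.024 under quantile normalization, to -0.026 under scaling to the detected probes, to -0.36 on slide 2, to -0.066 without vehicle 2 and to -0.038 without propolis 2, within a range up to 0.21 with 1 array left out. Ifngr1 turned to -0.17 on slide 2 and -0.041 without vehicle 2 and vehicle 3, and Irf7 to -0.23 without propolis 3, within a range up to 0.51. Array weights called 3231 of the 25777 genes tested, where the unweighted fit called 215. With these weights 35% of the 40 genes had an unadjusted p under 0.05, against 32.2% of all genes. Of the 40 genes they called 4, Isg20 (0.72, adjusted p = 0.0222), Cmpk2 (-0.72, 0.0289), Eif2ak2 (0.63, 0.0455) and Zbp1 (0.65, 0.0494). No other alternative called any gene of the group, and the adjusted p of these 4 reached 1.00 without vehicle 2 and vehicle 3. Over all genes, calls numbered 106 without the filter, 0 on slide 1 alone, 0 without vehicle 2 and vehicle 3, and 11 to 94 with 1 array left out. The median over the 40 genes was 0.12 without vehicle 2 and vehicle 3 and 0.18 to 0.30 with 1 array left out. Their count at an unadjusted p under 0.05 was 5 to 11 with 1 array left out, and 7.66% to 18.8% of all genes had such a p. The 5 came without propolis 1, propolis 2, vehicle 2 or vehicle 3, with 8.09% to 13.6% of all genes. The 11, without propolis 3, came with the 18.8%. With the replicate number as a block, 73 genes of all and 0 of the 40 were called. In that fit 32.5% of the 40 genes had an unadjusted p under 0.05, against 15.4% of all genes. With the slide as a block, 0 of the 40 were called and these shares were 30% and 16.7%. Same-numbered arrays deviated together with r = 0.036, 0.29 and 0.14. Propolis 2 and propolis 3 correlated best with the vehicle array of their own number. Propolis 1 correlated best with vehicle 3 (0.098), so the numbers were not taken as pairs. Probes near background limit the interferons themselves and Oas1g.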
